A study of Rattus norvegicus with 6 samples.

Results

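The acyl-CoA thioesterase gene Acot1 and 5 other genes of fatty acid oxidation, Acot2, Cpt1a, Angptl4, Acadm and Pdk4, were followed in rat lung after inhalation of particles. They were chosen by name, and each was measured by 1 array probe, so that they make 6 of the 24974 features kept from 41012 probes. Acot1 was named for its level on the C60 arrays at 3 days. Every comparison that contains those arrays is therefore given for these genes as a description, with no test. All 6 genes passed the filter on dim signal, Pdk4 only through the 3-day clean-air arrays.

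Male Wistar rats, 9 weeks old at the start, breathed an aerosol in whole-body chambers for 6 hours on 5 days of each of 4 weeks. The aerosol held C60 fullerene, a closed cage of carbon atoms, or ultrafine nickel oxide (NiO), which the study used as its positive control. The comparison group breathed clean air, and all groups ate standard chow. Lungs were rinsed through with saline and RNA came from whole right lungs, taken 3 days or 33 days (1 month) after the last exposure. At 3 days, 2 of 4 C60 arrays, 4 NiO arrays and 3 clean-air arrays were used, and at 1 month 4 arrays of each group. The 2 C60 arrays are those whose signal matches the C60 column of the authors' table, and the label of that sample gives n = 2. The other C60 arrays, numbered 3 and 4, are shown beside them. The labels do not say which rat an array belongs to. Their n was taken as a number of rats, 1 to an array, and if that is wrong the p-values hold technical spread only. Each group lay on 1 slide of its own and each time had 1 scan day, so a slide cannot be told apart from its group, nor a scan day from its time.

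Cells burn fatty acids after coupling them to coenzyme A. CPT1A loads the long-chain acyl group onto carnitine at the mitochondrial outer membrane, and ACADM carries out the first oxidation step of medium-chain acyl-CoA inside. Thioesterases take the coenzyme A off again, ACOT1 in the cytosol and ACOT2 in mitochondria. PDK4 switches off pyruvate dehydrogenase and so spares glucose, while ANGPTL4, a secreted protein, inhibits lipoprotein lipase. In liver and heart all of these genes are known targets of the peroxisome proliferator-activated receptors (PPARs), nuclear receptors that bind fatty acids.

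Feature Extraction marked 57.4% to 78.3% of an array's spots as well above background. All 10 lung epithelium markers (surfactant proteins among them) were well above background on every array used. The negative control spots gave 142.7 and 64.4 intensity units on the 3-day C60 arrays 1 and 2, while all 21 others gave 24.3 to 40.8. At 3 days the 10 fat cell markers on the array summed to 9.87 to 11.9 on the C60 arrays and 11.8 to 25.6 on the clean-air arrays, in units of each array's 75th percentile. The 12 heart muscle markers on the array summed to 72.2 to 101 in C60 and 98.8 to 140 in clean air. The 9 liver markers summed to 2.61 to 2.78 in C60 and 1.88 to 2.53 in clean air, and Fgb, Tat and Ttr were well above background on no array used at 3 days, Apoa1 and Apob on neither C60 array. The 8 alveolar macrophage markers on the array summed to 61.4 to 63.2 in C60 and 59.0 to 68.4 in clean air. The part of such cells in the results below was not tested, and in whole lung fewer cells of a type and less RNA per cell cannot be told apart.

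Acot1 was high on the C60 arrays of 3 days and low everywhere else. Levels are log2 units above or below the 75th percentile of signal on the same array. At 3 days Acot1 stood at 1.43 and 1.60 on C60 arrays 1 and 2. It stood at -1.43, -1.29, -1.21 and -0.48 on the NiO arrays, and at -1.29, -0.62 and -0.59 on the clean-air arrays. The lower C60 value lay 2.02 log2 units above the highest clean-air value. With the unused C60 arrays included, the gap to the highest NiO or clean-air value of 3 days was 1.86. The C60 mean was 1.52 ± 0.12 (SD, n = 2) and the clean-air mean -0.83 ± 0.40 (SD, n = 3), a log2 difference of 2.35 (SE 0.44), or 5.1-fold. Against the NiO mean of -1.10 ± 0.42 (SD, n = 4) the C60 mean was higher by 2.62 (SE 0.42). In the authors' deposited table, the ratio of Acot1 to control at 3 days was 4.31 with C60 and 0.63 with NiO. At 1 month that table gives 1.08 with C60 and 0.872 with NiO. Its column for clean air gives 0.86 at 3 days and 1.046 at 1 month. The scale and direction of that table were settled from the scanner values, its centring was not, and the medians of its C60 and NiO columns were 1.038 and 0.986 at 3 days and 1.125 and 1.132 at 1 month.

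The unused C60 arrays 3 and 4 gave 1.60 and 1.37 for Acot1, 2.32 above the clean-air mean. All 4 C60 arrays of 3 days lay above all 19 other arrays for Acot1, with a gap of 1.66 log2 units, and for Cpt1a, with a gap of 0.32. Arrays 1 and 2 lay above all 3 clean-air arrays for Acot1, Acot2, Cpt1a and Angptl4 (20.2% of all features), and arrays 3 and 4 for Acot1, Acot2, Cpt1a and Acadm (29.6%). Of all features 0.440% lay above all 19 other arrays on all 4, and nothing is read from these counts because Acot1 was chosen for its level there. In the same way all 4 C60 arrays lay above every NiO and clean-air array of 3 days for Acot1, Acot2 and Cpt1a (3.06% of all features), but not for Angptl4, Acadm or Pdk4.

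**Figure D1:**
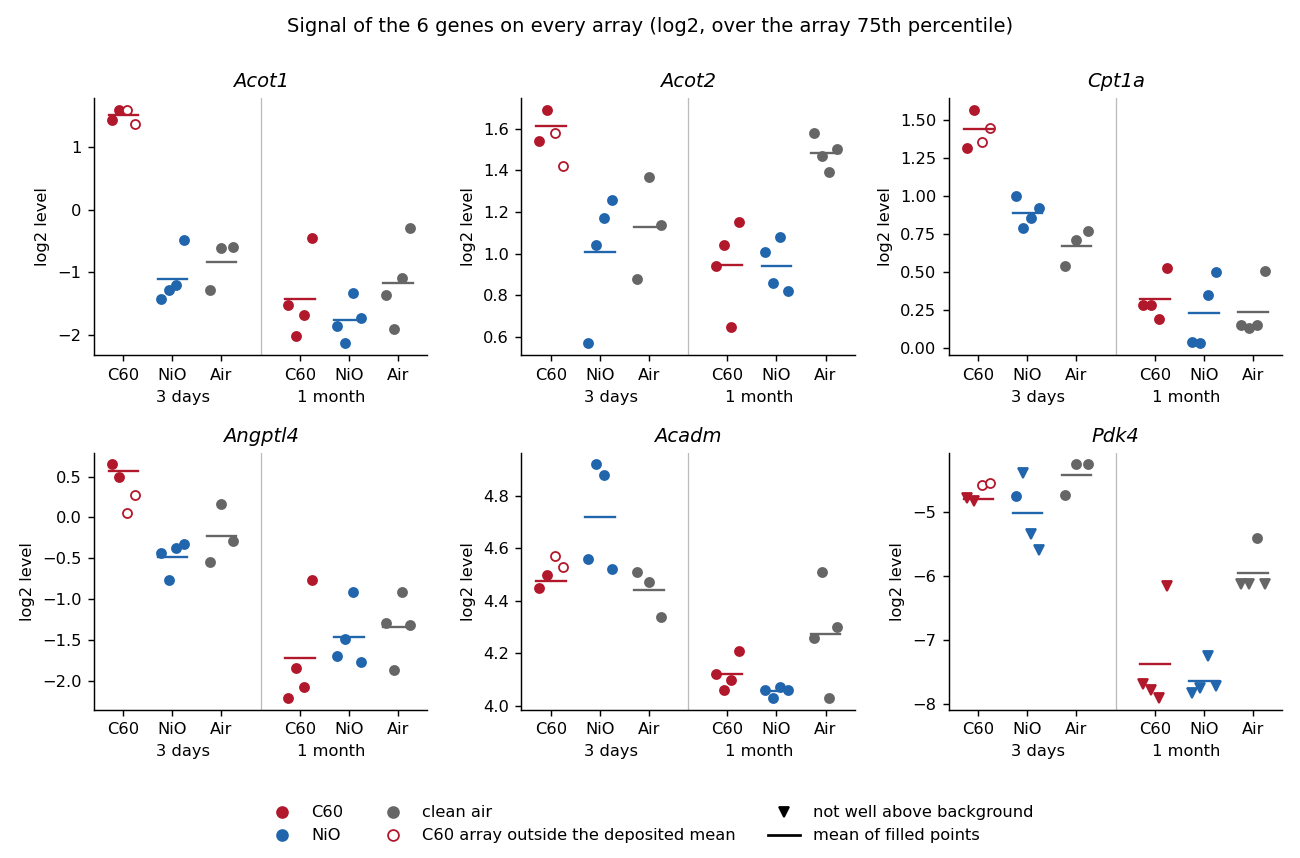
Log2 signal of each gene over the 75th percentile of the same array (vertical axis) on all 23 arrays, by group and time (horizontal axis). Filled points are the arrays used, with their mean as a line, open points are C60 arrays 3 and 4, and triangles are arrays where the probe was not well above background. The C60 points of 3 days, 1.37 to 1.60 for Acot1, stand above all others for Acot1 and Cpt1a.

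At 1 month the Acot1 difference was no longer seen. The C60 arrays gave -1.53, -2.02, -1.69 and -0.45, the NiO arrays -1.86, -2.14, -1.33 and -1.73, and the clean-air arrays -1.37, -1.91, -1.10 and -0.29. The 3 groups overlap, and 1 C60 array and 1 clean-air array are the highest. C60 differed from clean air by a log2 fold of -0.25 (95% interval -0.98 to 0.47, limma adjusted p = 0.606). NiO differed from clean air by -0.60 (interval -1.32 to 0.12, limma adjusted p = 0.184). The C60 difference at 1 month was 2.60 log2 units (SE 0.56) below that at 3 days, which again is a description. In order of mean level, C60 at 3 days (1.52) was followed by clean air at 3 days (-0.83), NiO at 3 days (-1.10), clean air at 1 month (-1.17), C60 at 1 month (-1.42) and NiO at 1 month (-1.77). All neighbours after the first overlap in their ranges.

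The Acot1 probe lies at chr6:108049691-108049750 of the rat build rn4 (plus strand), per the file annotation, and the Acot2 probe at chr6:108024282-108024341. The probes of Acot3 (chr6:108094199-108094258) and Acot5 (chr6:108122190-108122249 and chr6:108120826-108122044, spread over 1219 bases) follow on the same strand. The exons they cover were not analysed here. The first 30 bases of each 60-base probe show how far the letters on the array differ between these related genes:
Acot2: taaaaatagtgcctatccaaaaatagagtt
Acot1: cagttgggtggtaagagtcatggggtgtcc
Acot3: caccaaacgaatcaagaggatcaaagatgg
Acot5, probe A_44_P433992: agtctgcctgcttcgagcatgaatctagaa
Acot5, probe A_44_P775866: ccttcgtctggagtactttgaagaagctgt
Over their full length, the longest run of bases that the Acot1 probe shares with a probe of Acot2, Acot3 or Acot5 is 6, and with any of the 41011 other probes 13. Whether a probe also binds the transcripts of the other thioesterases was not tested.

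Acot5, the farthest of these genes from Acot2 and a peroxisomal thioesterase in mouse, was likewise highest on the C60 arrays of 3 days with 1 of its probes. With A_44_P775866, the probe of higher mean signal,, Acot5 stood at -1.49 and -1.32 on the C60 arrays of 3 days (and at -1.47 on both unused arrays). It stood at -2.57, -2.60, -2.67 and -2.58 on the NiO arrays and at -2.52, -2.23 and -2.40 on the clean-air arrays. The C60 values lie apart from both other groups, 0.97 (SE 0.15) above the clean-air mean. All 4 C60 arrays lay above every NiO and clean-air array of 3 days for 3.06% of all features, and nothing is read from this separation. With the other probe, A_44_P433992, the NiO arrays were as high as the C60 arrays, with means of -2.51 ± 0.12 (SD, n = 2) for C60 and -2.54 ± 0.29 (SD, n = 4) for NiO. That probe was not well above background on any of the 3 clean-air arrays of 3 days, so the probes of Acot5 disagree on NiO. Acot3, also a peroxisomal thioesterase in mouse, gave -2.56 and -2.92 on the C60 arrays, -2.99, -2.84, -2.32 and -3.32 on the NiO arrays, and -2.82, -2.41 and -2.92 on the clean-air arrays. These groups overlap, and the C60 difference from clean air was -0.02.

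**Figure D2:**
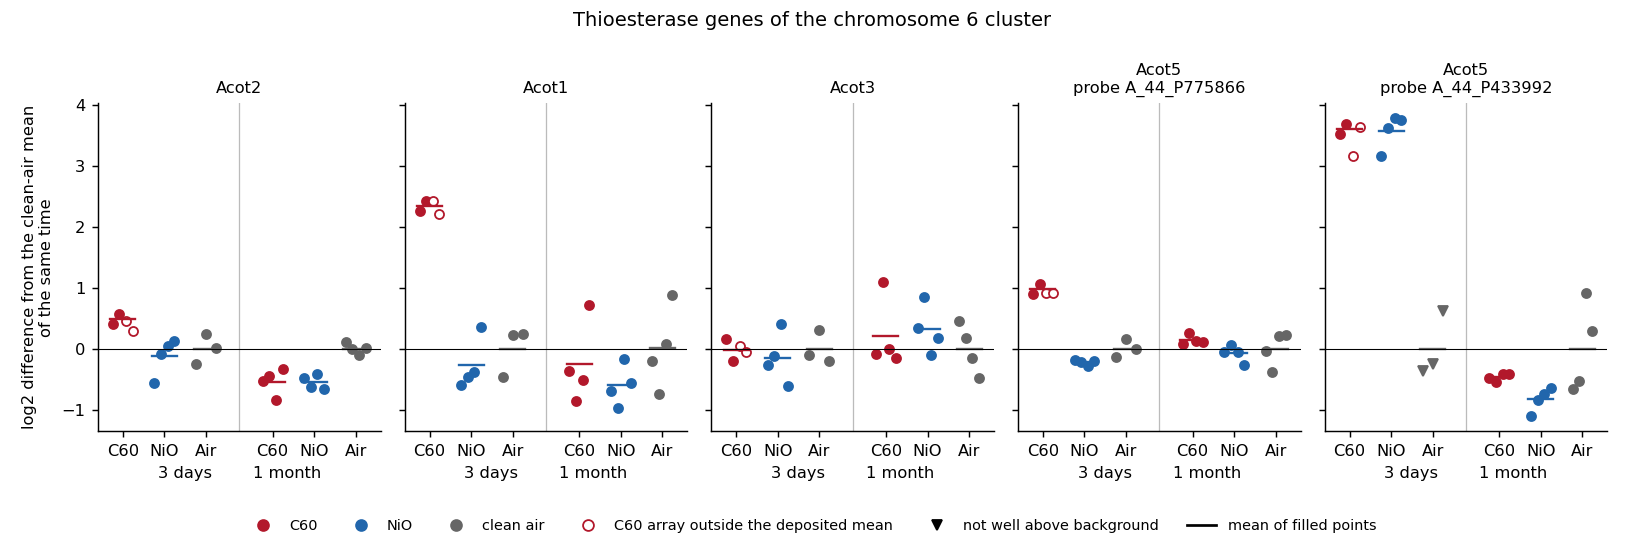
Log2 difference of each array from the clean-air mean of the same time (vertical axis) for the probes of 4 thioesterase genes in their order on chromosome 6, by group and time (horizontal axis). Points and lines are as in the plot of levels by array. The C60 arrays of 3 days stand 2.26 and 2.43 above clean air for Acot1 and 0.89 and 1.06 for Acot5 probe A_44_P775866, and lie around 0 for Acot3.

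The stretch before the start of Acot1 and of Acot2 is shown because they are neighbours that were both high on the C60 arrays. The sequences are from RefSeq (GRCr8, plus strand, 250 bases up to the start), at chr6:109367024-109367273 for Acot1 and chr6:109342590-109342839 for Acot2, with CCAAT, and its reverse complement where the motif is on the minus strand, in capitals:
Acot1: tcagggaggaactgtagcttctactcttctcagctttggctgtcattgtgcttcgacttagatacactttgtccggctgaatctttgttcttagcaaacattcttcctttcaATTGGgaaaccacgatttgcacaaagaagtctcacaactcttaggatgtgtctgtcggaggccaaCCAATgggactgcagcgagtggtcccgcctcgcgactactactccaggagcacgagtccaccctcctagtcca
Acot2: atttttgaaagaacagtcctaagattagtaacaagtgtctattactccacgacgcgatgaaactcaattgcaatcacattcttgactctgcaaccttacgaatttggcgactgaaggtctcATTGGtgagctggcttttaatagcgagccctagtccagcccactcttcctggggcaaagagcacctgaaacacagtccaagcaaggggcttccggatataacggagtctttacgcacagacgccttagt
CCAAT was found on either strand in Acot1, Acot2 and Pdk4 and in 34.0% of 33469 rat promoters. A direct repeat of AGGTCA with 1 base between its copies, the element that PPARs are known to bind with the retinoid X receptor, was in none of the 6 genes and in 0.0508% of promoters. A single AGGTCA, which overlaps it, was in none of the 6 and in 14.1% of promoters. No match says only that these letters are not in this window.

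Acot2, the mitochondrial thioesterase, was slightly higher on the C60 arrays at 3 days and lower after both particles at 1 month. At 3 days it stood at 1.54 and 1.69 on the C60 arrays, and at 1.58 and 1.42 on the unused ones. It stood at 0.57, 1.04, 1.17 and 1.26 on the NiO arrays and at 0.88, 1.37 and 1.14 on the clean-air arrays. The C60 arrays were the highest, though the gap to the nearest clean-air array was only 0.17 for arrays 1 and 2 and 0.05 for arrays 3 and 4, and the log2 difference was 0.48 (SE 0.19). For NiO the groups overlap (log2 fold -0.12, 95% interval -0.45 to 0.21, limma adjusted p = 0.611).

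At 1 month Acot2 gave 0.94, 1.04, 0.65 and 1.15 on the C60 arrays, 1.01, 0.86, 1.08 and 0.82 on the NiO arrays, and 1.58, 1.47, 1.39 and 1.5 on the clean-air arrays. Every clean-air array lay above every particle array, but the share of all features that do so was not counted. Acot2 fell by 0.54 on the log2 scale (SE 0.14, 0.688-fold, limma adjusted p = 0.0177) in C60 lungs. It fell by 0.55 (SE 0.14, 0.685-fold, limma adjusted p = 0.0107) in NiO lungs. C60 and NiO differed by 0.01 (95% interval -0.30 to 0.31, limma adjusted p = 1). The median of all features stood at -0.09 for C60 and -0.12 for NiO at this time, and Acot2 lay 0.45 and 0.42 below it. Both calls were lost when arrays were scaled to their median (-0.23, adjusted p = 0.291 for C60, and -0.21, adjusted p = 0.342 for NiO), where the distances to the median of all features were the same. The C60 call was also lost without C60 array 3 (-0.44, adjusted p = 0.0601). In order of mean level, C60 at 3 days (1.61) was followed by clean air at 1 month (1.49) and 3 days (1.13), NiO (1.01) at 3 days, and C60 (0.95) and NiO (0.94) at 1 month. Neighbours overlap in their ranges, except the 2 clean-air groups.

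Cpt1a, which controls the entry of long-chain fatty acids into mitochondria, was the other gene with its highest levels on all C60 arrays of 3 days. Its probe (rn4 chr1:205912066-205912125) was printed 10 times on each array, with an SD over spots of at most 0.08 log2 units. The C60 arrays gave 1.32 and 1.57 (1.36 and 1.45 on the unused ones). The NiO arrays gave 1.00, 0.79, 0.86 and 0.92, and the clean-air arrays 0.54, 0.71 and 0.77. The 3 groups did not overlap, with NiO between C60 and clean air, but the share of all features that do so was not counted. C60 was higher than clean air by 0.77 (SE 0.16), or 1.71-fold, and higher than NiO by 0.55 (SE 0.15), both without a test. The NiO difference from clean air of 0.22 (95% interval -0.06 to 0.50) did not pass (limma adjusted p = 0.25).

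At 1 month Cpt1a stood at 0.28, 0.28, 0.19 and 0.53 on the C60 arrays, at 0.04, 0.03, 0.35 and 0.50 on the NiO arrays, and at 0.15, 0.13, 0.15 and 0.51 on the clean-air arrays. The groups overlap: the log2 fold was 0.08 for C60 (95% interval -0.18 to 0.34, limma adjusted p = 0.647) and -0.01 for NiO (interval -0.26 to 0.25, limma adjusted p = 0.97). Clean-air lungs themselves had less Cpt1a at 1 month than at 3 days, by a log2 fold of -0.44 (SE 0.13, limma adjusted p = 0.0124), a call that was lost without clean-air array 3 of 3 days (-0.39, adjusted p = 0.0554). In order of mean level, C60 (1.45), NiO (0.89) and clean air (0.68) of 3 days came before C60 (0.32), clean air (0.24) and NiO (0.23) of 1 month, and only the last 3 overlap in their ranges.

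Angptl4, the secreted lipase inhibitor, stood at 0.65 and 0.50 on C60 arrays 1 and 2 at 3 days (probe at rn4 chr7:16262218-16262277, minus strand). It was lower on the unused C60 arrays, 0.05 and 0.28. The NiO arrays gave -0.44, -0.77, -0.38 and -0.33, and the clean-air arrays -0.55, 0.16 and -0.29. Arrays 1 and 2 lay above clean air, with a difference of 0.80 (SE 0.36), but array 3 did not lie above the highest clean-air array. Against NiO all 4 C60 arrays were higher, by 1.05 (SE 0.34) for the arrays used. The share of all features that do so was not counted, and nothing is read from it.

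At 1 month Angptl4 gave -2.21, -1.85, -2.08 and -0.76 on the C60 arrays, -1.70, -1.49, -0.91 and -1.77 on the NiO arrays, and -1.29, -1.87, -0.91 and -1.32 on the clean-air arrays. The groups overlap (C60 log2 fold -0.38, 95% interval -0.97 to 0.22, limma adjusted p = 0.341, NiO -0.12, interval -0.71 to 0.47, limma adjusted p = 0.758). Without C60 array 4 the C60 fold was -0.70 (adjusted p = 0.0479). Clean-air lungs fell by 1.12 (SE 0.30, limma adjusted p = 0.00641) at 1 month against 3 days. In order, C60 (0.57), clean air (-0.23) and NiO (-0.48) of 3 days were followed by clean air (-1.35), NiO (-1.47) and C60 (-1.72) of 1 month. The ranges overlap between clean air and NiO of 3 days and among the 3 groups of 1 month. They also just overlap between NiO of 3 days (lowest -0.77) and C60 of 1 month (highest -0.76).

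Acadm, the medium-chain acyl-CoA dehydrogenase, did not follow Acot1. Its probe (rn4 chr2:251867002-251867061, minus strand) gave 4.45 and 4.50 on the C60 arrays of 3 days (4.57 and 4.53 on the unused ones), 4.56, 4.92, 4.88 and 4.52 on the NiO arrays, and 4.51, 4.47 and 4.34 on the clean-air arrays. C60 differed from clean air by 0.04 (SE 0.14). NiO differed from it by 0.28 (95% interval 0.04 to 0.52), which did not pass over all features (limma adjusted p = 0.0899). Every NiO array was above clean air, but the share of all features that do so was not counted. At 1 month the C60 arrays gave 4.12, 4.06, 4.10 and 4.21, the NiO arrays 4.06, 4.03, 4.07 and 4.06, and the clean-air arrays 4.26, 4.51, 4.03 and 4.30. The log2 fold was -0.15 for C60 (95% interval -0.37 to 0.07, limma adjusted p = 0.315) and -0.22 for NiO (interval -0.44 to 0.01, limma adjusted p = 0.123). With normexp background correction and quantile normalization Acadm was called lower after both, by -0.31 (adjusted p = 0.00928) for C60 and -0.34 (adjusted p = 0.00391) for NiO, and for NiO also without clean-air array 3 of 1 month (-0.30, adjusted p = 0.0399).

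The NiO effect on Acadm at 1 month was lower than at 3 days by 0.50 (SE 0.16, limma adjusted p = 0.0207), 0.32 below the median of all features in that comparison. This call was lost without NiO arrays 2 and 3 of 3 days (-0.32, adjusted p = 0.133), without clean-air array 3 of 3 days (-0.45, adjusted p = 0.0571), when the C60 groups were left out of the fit (-0.50, adjusted p = 0.0502), and under median scaling (0.02, adjusted p = 0.952). In order of mean level, NiO (4.72), C60 (4.48) and clean air (4.44) of 3 days came before clean air (4.27), C60 (4.12) and NiO (4.06) of 1 month. Neighbours in this order overlap in their ranges, except NiO and C60 of 3 days.

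Pdk4, the pyruvate dehydrogenase kinase that fasting raises in muscle and liver, was close to background (probe between rn4 chr4:30239150 and 30241038, minus strand, in more than 1 block). At 3 days it was well above background on 0 of 2 C60 arrays, 1 of 4 NiO arrays and 3 of 3 clean-air arrays. Both unused C60 arrays were well above it, at -4.58 and -4.54. These counts do not compare Pdk4 levels. The processed signal was 23.8 and 24.4 on C60 arrays 1 and 2, which failed the mark. It was 23 on clean-air array 1 and 22.3 on NiO array 1, which passed it. C60 arrays 1 and 2 are those with the high negative control signal (142.7 and 64.4). The arrays used ranged from -4.82 to -4.78 for C60, from -5.59 to -4.39 for NiO and from -4.73 to -4.25 for clean air. At 1 month it was well above background on none of the 4 C60 and none of the 4 NiO arrays, and on 1 of 4 clean-air arrays. No fold is given where a group is dim on all its arrays. Pdk4 was called lower than clean air after C60 (limma adjusted p = 0.00837) and after NiO (limma adjusted p = 0.00201) at 1 month, and both calls were lost under quantile scaling (adjusted p = 0.215 for C60 and 0.0667 for NiO) and with normexp background correction (adjusted p = 0.262 and 0.186). In clean-air lungs its mean signal was -5.95 at 1 month and -4.41 at 3 days, given with no test because Pdk4 passed the filter through the 3-day clean-air group.

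Pdk4 passed the filter through the 3-day clean-air group and is not counted where that group is compared. Of the other genes, limma called none for NiO against clean air at 3 days, where 19.0% of all features were called. Only Acadm had an unadjusted p under 0.05 there, as had 35.2% of all features. At 1 month 2 of 6, Acot2 and Pdk4, were called for C60 (19.7% of all features) and the same genes for NiO (30.9%). None was called between C60 and NiO at 1 month (1.23% of all features, 0.392% higher and 0.837% lower), and none had an unadjusted p under 0.05 (9.88% of all features). The change of the NiO effect between the times was called for Acadm alone, Pdk4 not counted (37.5% of all features, 14.4% higher and 23.1% lower). In clean-air lungs Cpt1a and Angptl4 were called lower at 1 month than at 3 days, and Pdk4 is not counted there (46.0% of all features, 27.7% higher and 18.3% lower). For the comparisons given without a test, 4.93% of all features were called for C60 against clean air at 3 days, 7.78% for C60 against NiO at 3 days and 10.4% for the change of the C60 effect (4.22% higher and 6.19% lower).

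**Figure D3:**
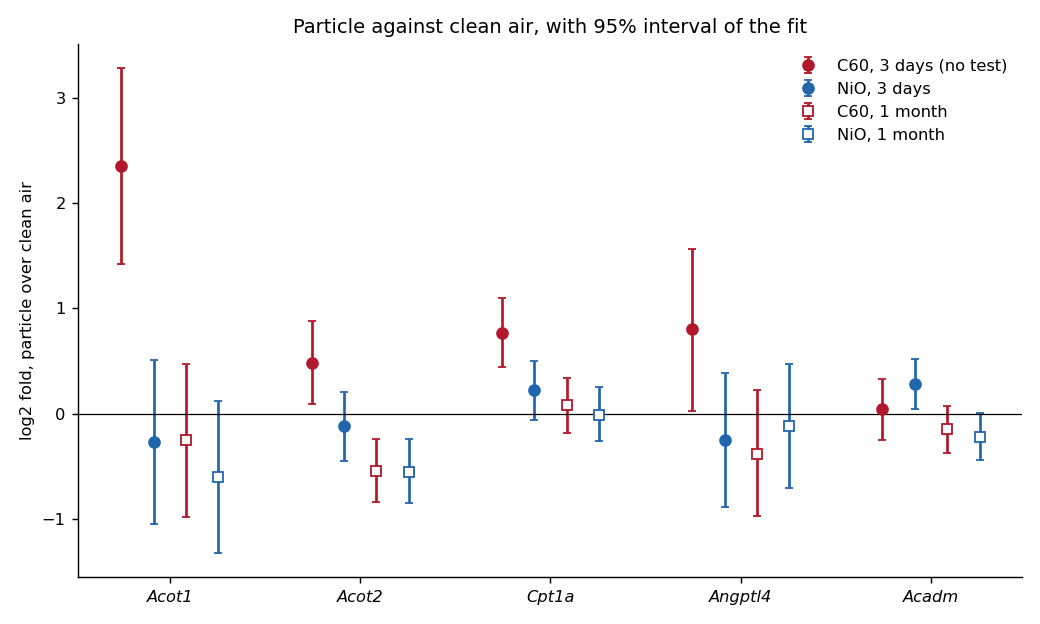
Log2 fold of particle over clean air (vertical axis) for 5 of the genes (horizontal axis), for C60 and NiO at 3 days and 1 month, with the 95% interval of the fit over 21 arrays. Pdk4 is left out because it was dim. Acot1 stands at 2.35 for C60 at 3 days, where the values and their intervals are a description with no test. The intervals of Acot2 lie below 0 for both particles at 1 month.

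The genes most like Acot1 over the 21 arrays, by Pearson correlation among 13544 features with a symbol, were Acot5 (r = 0.880), Hs3st1 (0.865), Cpt1a (0.818), Inpp5k (0.816) and Slc43a3 (0.799). Angptl4 had rank 6 (0.794), and Acot2 stood at rank 54 (0.629), Pdk4 at 154 (0.568) and Acadm at 2411 (0.311). These values, except those of Pdk4 and Acadm, lean on the C60 arrays of 3 days, which stand apart. Over the other 19 arrays r was 0.56 for Acot5, 0.628 for Hs3st1, 0.587 for Cpt1a, 0.444 for Inpp5k, 0.686 for Slc43a3 and 0.670 for Angptl4. For Acot2 it was 0.448, for Pdk4 0.609 and for Acadm 0.298. Both times are among these arrays, and r was not computed within 1 time. Hs3st1, which encodes a sulfotransferase of heparan sulfate, averaged 0.31 in C60, -0.24 in NiO and -0.12 in clean air at 3 days. Inpp5k, an inositol phosphatase gene, averaged -0.48 in C60, -1.04 in NiO and -1.02 in clean air. Slc43a3, a solute carrier gene, averaged -0.22 in C60, -1.25 in NiO and -0.53 in clean air.

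Other genes were taken from 9 lists of lipid and pyruvate metabolism with its regulators and 1 list of glucocorticoid-responsive genes, 175 in all. Of these 154 were measured, and for C60 at 3 days 3 were called higher and 5 lower (5.19%, against 4.93% of all features, 2.94% higher and 1.99% lower), and nothing is read from this count. The lists were chosen with earlier results of these data known. Their median log2 fold was -0.11, against -0.03 over all features. Without the glucocorticoid list 3 of 141 were called higher and 1 lower, and 7 and 7 with normexp background correction. The higher ones were Acot5, Bdh1 and Etfdh. Bdh1, a ketone body dehydrogenase, averaged -2.26 ± 0.31 in C60 and -3.85 ± 0.27 in clean air (SD, n = 2 and 3), a difference of 1.59 (SE 0.31). Etfdh, which passes electrons from acyl-CoA dehydrogenases to the respiratory chain, averaged 0.57 ± 0.06 in C60 and 0.12 ± 0.18 in clean air, a difference of 0.46 (SE 0.13). In clean air at 1 month Bdh1 averaged -2.04 and Etfdh 0.99. For both genes the 3-day clean-air mean was the lowest of the 6 groups. The part of this in their C60 differences was not tested. Of 25 measured genes of mitochondrial beta-oxidation, Etfdh was the only one called, and the median was -0.04. None of 17 genes of peroxisomal oxidation was called (median 0.12).

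The genes that were lower in C60 lungs at 3 days were 1 of 22 PPAR receptors, partners and regulators, and 4 of 13 glucocorticoid-responsive genes. Of all features 1.99% were called lower there, and nothing is read from these counts either. Klf15, a transcription factor induced by fasting and glucocorticoids, averaged 2.72 ± 0.58 in C60 and 3.95 ± 0.03 in clean air, a difference of -1.23 (SE 0.27). Its C60 arrays 1 and 2 read 2.31 and 3.13, and the difference was -1.64 without array 2, -0.82 without array 1 and -0.86 with all 4 arrays. Klf15 averaged 2.56 in NiO at 3 days, and 3.09, 2.71 and 2.64 in C60, NiO and clean air at 1 month. Its 3-day clean-air mean was the highest of the 6 groups. In the glucocorticoid list Ddit4 (-1.87, SE 0.45), Fkbp5 (-1.38, SE 0.39), Cdkn1a (-1.21, SE 0.28) and Errfi1 (-0.95, SE 0.19) were lower. The median of the list was -0.81, against -0.03 over all features. Fkbp5 read 1.5 and 2.79 on the C60 arrays, and its difference was -2.02 without array 2 and -0.74 without array 1. For NiO at 3 days the same list had 6 of 13 called lower and 2 higher, with a median of -0.70, where 7.86% of all features were called lower and 11.1% higher and their median was 0.04. In clean-air lungs it had 9 of 13 called lower and 1 higher at 1 month against 3 days, with a median of -1.04, where 18.3% of all features were called lower and 27.7% higher and their median was 0.19. Ddit4 averaged 0.02 in C60, 0.16 in NiO and 1.90 in clean air at 3 days, and -0.59, -0.74 and -1.02 in that order at 1 month. The 3-day clean-air group, with which the C60 arrays of 3 days were compared, is the group that is subtracted in all 3 of these medians, which lie below 0. The part of this difference in the values of Acot1 was not tested.

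For NiO at 3 days 15 of the 154 genes of all 10 lists rose and 16 fell (20.1%, against 19.0% of all features, 11.1% higher and 7.86% lower, median -0.02). After median scaling 7 rose and 24 fell. Without the glucocorticoid list 13 of 141 rose and 10 fell (16.3%), and 6 and 18 after median scaling. Of the marker lists, 5 of 10 endothelium genes were called lower (median -0.51), 3 of 9 skeletal muscle genes higher (0.63) and 2 of 8 alveolar macrophage genes higher (0.44), and their part was not tested. Fabp5, a fatty acid-binding protein of macrophages and epithelium, rose by 1.35 (SE 0.16, limma adjusted p = 2.31e-05). Scp2 (0.81, SE 0.19, adjusted p = 0.00844) and Etfdh (0.60, SE 0.11, adjusted p = 0.00128), which serve peroxisomal and mitochondrial oxidation, rose, and Bdh1 did too (1.33, SE 0.26, adjusted p = 0.00234). Klf15 fell by 1.39 (SE 0.23, adjusted p = 0.000562) on the log2 scale. Of the 6 groups, clean air at 3 days had the lowest Bdh1 and Etfdh means and the highest Klf15 mean. These were -3.85, 0.12 and 3.95, against -2.04, 0.99 and 2.64 in clean air at 1 month. The part of that group in these NiO differences was not tested. Scp2 lost its call without NiO arrays 2 and 3 (adjusted p = 0.144), which read 7.21 and 7.22, against 6.19 and 6.8 on arrays 1 and 4. Arrays 2 and 3 stood apart in this way for some genes of the lists and not for others. Bdh1 lost its call with normexp background correction (adjusted p = 0.113), and Etfdh when the other groups were left out of the fit (adjusted p = 0.0641). No other thioesterase of 8 measured was called, with Acot5 measured by probe A_44_P775866. Its other probe, A_44_P433992, did not enter this fit. That probe was well above background on all 4 NiO arrays and on none of the 3 clean-air arrays.

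At 1 month 16 of the 154 rose and 9 fell after C60 (16.2%, against 19.7% of all features, 7.29% higher and 12.4% lower, median 0.01 against -0.09). After NiO 33 rose and 17 fell (32.5%, against 30.9%, 11.9% higher and 18.9% lower, median 0.08 against -0.12). After median scaling the counts were 48 and 6 for C60, and 70 and 7 for NiO. Without the glucocorticoid list 14 of 141 rose and 8 fell after C60 (15.6%), and 28 rose and 16 fell after NiO (31.2%). Pparg, the PPAR of alveolar macrophages and fat cells, rose after NiO by 1.08 (SE 0.12, limma adjusted p = 3.71e-05) and was lower in C60 than in NiO lungs by a log2 fold of -1 (SE 0.12, adjusted p = 0.000307). After NiO the alveolar macrophage markers, Pparg among them, summed to 84.3 to 104, against 69.8 to 89.7 in clean air, and the part of these cells was not tested. Crot, which moves acyl groups out of peroxisomes, fell by 0.91 (SE 0.18, adjusted p = 0.00213) after NiO. Acot7, a cytosolic thioesterase, rose by 0.97 (SE 0.19, adjusted p = 0.00219) after NiO. Elovl5, a fatty acid elongase, fell by 1.07 (SE 0.18, adjusted p = 0.00158) after C60 and by 0.92 (SE 0.18, adjusted p = 0.00201) after NiO. Cpt2, the inner partner of Cpt1a, rose by 0.51 (SE 0.12, adjusted p = 0.00835) after C60 and by 0.47 (SE 0.12, adjusted p = 0.00747) after NiO, and both calls were lost with normexp background correction (adjusted p = 0.0762 for C60 and 0.0725 for NiO).

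**Figure D4:**
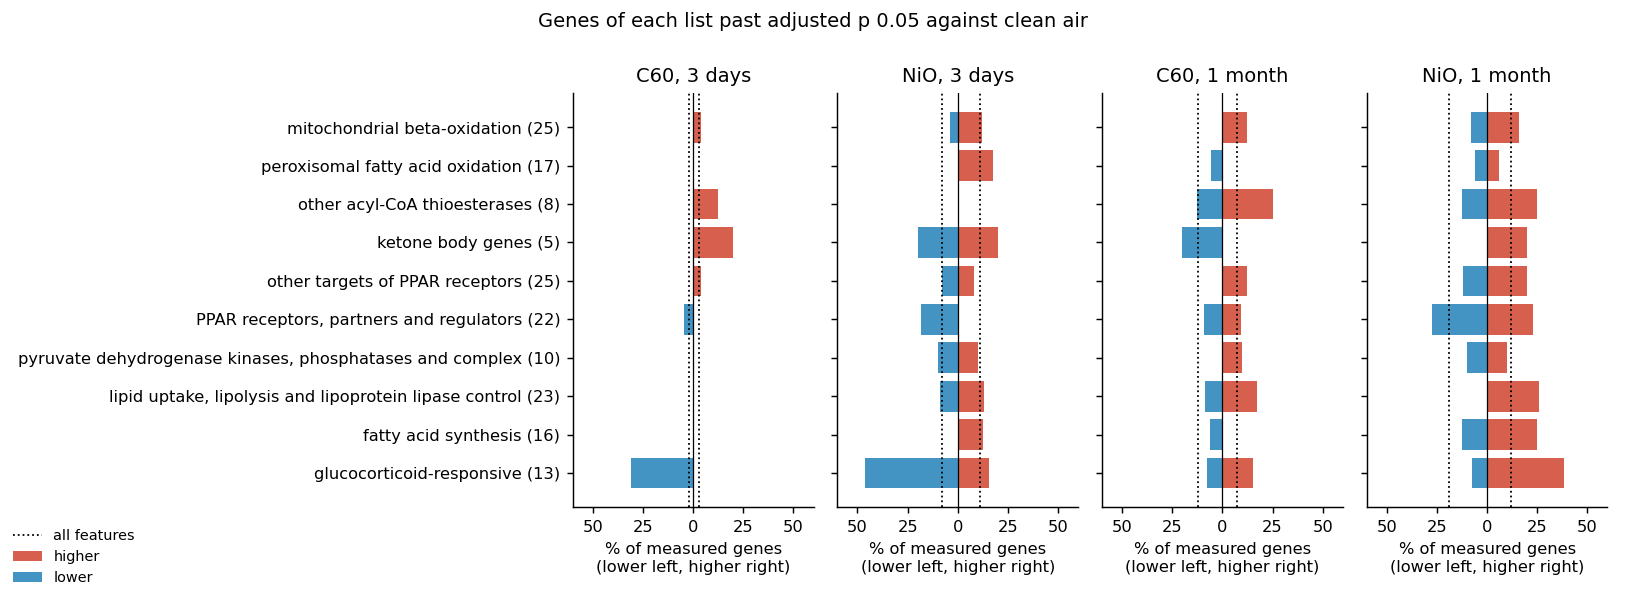
Share of the measured genes of each list (number in brackets) that passed a limma adjusted p of 0.05 against clean air, lower to the left and higher to the right (horizontal axis, percent), for each particle and time. Dotted lines give the share of all features called in that direction. Of the glucocorticoid-responsive genes 4 of 13 were lower for C60 at 3 days (1.99% of all features), while 1 of 25 mitochondrial genes was higher (2.94% of all features). Nothing is read from these C60 counts.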

How the data were processed

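RNA of rat lung was hybridised to 1-colour Agilent rat arrays. Per the file headers, intensity was extracted with Agilent Feature Extraction 9.5.3.1 (protocol GE1-v5_95_Feb07, grid build rn4), background-subtracted and not normalized between arrays. The authors also deposited a table of ratios to control, whose steps are not given in the sources used here. From the deposited intensity, log2 of the processed signal minus the log2 of each array's 75th percentile was computed. Control spots and outlier flags were left out, spots of a probe were averaged, and 28676 probes well above background on every array of at least 1 group were kept. A gene with several probes took the one with the highest mean signal.

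The 6 groups, 21 arrays in all, were fitted together with limma 3.58.1 in R 4.3.3 (residual df 15), and Benjamini-Hochberg adjustment ran over all 24974 features, of which 13545 have a symbol. Calls are at an adjusted p under 0.05. The labels describe 1 sample a group, and its arrays were taken as replicates. The test was tried on simulated data with independent noise and no slide effect, and no result here rests on that trial. The number of arrays limits the precision.

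The genes and lists were chosen with earlier results of these data known. Of each list, at most 4 genes per comparison were eligible to be named, those with the largest fold among the called, and the text names some of these. The 5 genes most like Acot1 were named too. Acot3, the second probe of Acot5 and some levels of Ddit4 were given after their values were seen. Alternatives were quantile and median scaling, normexp background correction, other filters and probe rules, other sets of arrays, and leaving out each array.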

Additional observations from a re-analysis of the deposited data

Results flagged for a closer look

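Of 24 groups of 4 arrays tested for a single array far from the rest, 4 were marked, and chance marks about 1 in 20. Cpt1a stood at 0.51 on clean-air array 4 of 1 month, against 0.13 to 0.15 on the other arrays of that group. Acadm stood at 4.03 on NiO array 2 of 1 month, against 4.06 to 4.07. Pdk4 stood at -6.16 on C60 array 4 of 1 month, against -7.91 to -7.69, and at -5.41 on clean-air array 3 of 1 month, against -6.13 to -6.12, all near background.

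The NiO effect on Acadm differed between the times by -0.50 (1 month minus 3 days) in limma's test of the difference, with an adjusted p of 0.0207. Every NiO array of 3 days lay above the clean-air mean and every NiO array of 1 month below it. For Acot2 every C60 array lay above the clean-air mean at 3 days and below it at 1 month, and the C60 effect at 1 month minus 3 days was -1.02. For Acadm the same held by a small margin, with a difference of -0.19, and with normexp background correction the effects had the same sign, -0.09 at 3 days and -0.31 at 1 month. Neither difference was tested, because Acot1 was chosen on the C60 arrays of 3 days.

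C60 arrays 3 and 4 of 3 days were outside the comparisons but belong to the group for which Acot1 was chosen. They lay above every clean-air array for 4 genes, for Acadm by a gap of only 0.02. Of all features 29.6% did so, and nothing is read from this count. They exceeded the clean-air mean by 2.32 for Acot1, 0.37 for Acot2, 0.73 for Cpt1a and 0.11 for Acadm.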

How the results depend on the processing

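No paired analysis was possible because the labels give no replicate numbers and each group is 1 labelled sample. The cause of the changes below was not tested, except where stated. For C60 against clean air at 3 days, 1231 features were called, 2963 with all 4 C60 arrays, and 735 to 905 with 1 array left out. The count of 8 over the 10 lists became 17 with normexp and 22 with all 4 arrays, and 2 to 8 with 1 array left out. For NiO against clean air at 3 days the 0 calls among the genes other than Pdk4 became 0 to 1, with Acadm called without NiO array 1 or 4. The count of 31 over the lists became 13 without NiO arrays 2 and 3, 7 with only the compared groups in the fit, and 17 to 50 with 1 array left out (50 without NiO array 1 and 17 without clean-air array 1). For C60 against NiO at 3 days, 1942 features became 1260 (above background on every array), 5948 (all 4 C60 arrays), 746 (without NiO arrays 2 and 3), 63 (only the compared groups), and 573 (without C60 array 1) to 7134 (without NiO array 1).

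At 1 month the 2 calls among the 6 genes became 1 for each particle under quantile scaling, median scaling, the stricter filter, and only the compared groups, and 1 to 3 for C60 and 2 to 3 for NiO with 1 array left out. Under the stricter filter and with only the compared groups Pdk4 failed the filter and was not tested. Counts over the lists for C60 went to 42 (normexp), 54 (median scaling) and 12 (only the compared groups), against 25, and to 9 to 30 with 1 array left out (9 without clean-air array 2). For NiO they went to 77 under median scaling, against 50, and to 33 to 49. Under median scaling the sign turned for Acot1 (0.05) and Acadm (0.16) after C60, for Cpt1a (0.33), Acadm (0.12) and Angptl4 (0.22) after NiO, and for Acot2 between C60 and NiO (-0.03). Median scaling shifts all features alike (their median went to 0.22 for C60 and 0.21 for NiO, against -0.09 and -0.12), and the distances of these genes to that median did not move. With normexp, Acadm was called lower after both particles at 1 month. For the change of the C60 effect, 2601 features became 4116 (median scaling), 5638 (all 4 arrays) and 1311 to 3197 with 1 array left out. For the NiO effect, the 1 call became 2 (normexp), 0 (median scaling), 0 (without NiO arrays 2 and 3) and 0 to 2. Pdk4, which passed the filter through the 3-day clean-air group, is included in these counts. Nothing is read from a rise in them. Its sign turned for Pdk4 (0.07 normexp, 0.14 quantile) and under median scaling for Acot1 (0.19), Acot2 (0.09), Cpt1a (0.29) and Acadm (0.02). With the mean of a gene's probes, the clean-air change over time was 1.68 for Acot5 and -0.19 for Srebf1, both of the opposite sign. With 1 array left out, signs turned within these ranges: Acot2 -0.24 to 0.03 and Acot3 -0.33 to 0 (NiO at 3 days), Acot1 -0.58 to 0.04 and Acot3 -0.08 to 0.36 (C60 at 1 month), Cpt1a -0.10 to 0.08 and Angptl4 -0.31 to 0.02 (NiO at 1 month), Acot2 -0.06 to 0.10 and Pdk4 -0.15 to 0.44 (C60 against NiO at 1 month), and Angptl4 -0.06 to 0.29 (NiO effect over time). Of 609 values of the 6 genes in tested comparisons under alternatives, 558 kept direction and side of the threshold, 27 reversed, 13 passed it and 11 lost it. These include Pdk4 where the 3-day clean-air group is compared. Of 290 in the untested ones, 8 moved by more than the spread between arrays.

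Feature counts moved too. NiO at 3 days called 4734 features, 846 with only the compared groups and 2222 to 9621 with 1 array left out. C60 at 1 month called 4929, 8464 under median scaling and 2463 to 5128 with 1 array left out. C60 against NiO at 1 month called 307, 626 with only the compared groups, 196 under median scaling, 197 with no filter, and 135 to 343 with 1 array left out. Dim signal limits Pdk4.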
